A study of Mus musculus with 18 samples.

Results

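This report describes 7 mouse genes whose products are best known from the granules and cytosol of neutrophils: S100a8, S100a9, Lcn2, Mmp8, Ngp, Camp and Ltf. They were chosen by name, with their values in these data already known, and each had a row in both tables of 21441 genes. RNA-seq of RAW264.7 cells, a macrophage-like mouse cell line, and of mouse liver gave 9 libraries each, 3 control, 3 LPS and 3 LPS + MIC-1. LPS, the lipopolysaccharide of Gram-negative bacteria, is the stimulus of innate immune cells in both experiments. MIC-1, moringa isothiocyanate-1, is an isothiocyanate from the seeds of Moringa oleifera, and the question was how the genes that LPS induces respond when it is added.

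The liver came from wild type C57BL/6 mice, which the study's methods give as male. Controls were a DMSO vehicle group that received saline, and LPS was injected into the peritoneum at 10 mg/kg. MIC-1 was given in the DMSO vehicle by gavage at 80 mg/kg for 3 days before LPS. Tissue was taken 16 hours after LPS, and each group of 6 animals gave 3 libraries. The labels of the RAW264.7 libraries repeat these animal doses, whereas the series' design text gives 10 µM MIC-1 with LPS. RAW264.7 is a transformed line, and nothing in the labels says that its libraries came from separate cultures, so p-values there measure only the spread between these libraries. The tables name the group of each column but no replicate number, and libraries are numbered here by their order within a group. The age of the mice is not given in the sources used here.

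S100A8 and S100A9 form calprotectin, the calcium- and zinc-binding heterodimer that fills the neutrophil cytosol, withholds metals from microbes and signals through TLR4. Lipocalin 2, the product of Lcn2, binds bacterial siderophores, and besides neutrophils it is made by hepatocytes and macrophages during the acute phase response. Mmp8 encodes neutrophil collagenase, Ngp neutrophilic granule protein, Camp the cathelicidin antimicrobial peptide and Ltf the iron-binding lactoferrin. These 4 products are stored in the specific and gelatinase granules that form while neutrophils mature in the bone marrow.

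In mm9, the build of the authors' index, S100a8 (chr3:90472993-90473956, plus strand, 3 exons) and S100a9 (chr3:90496554-90499643, minus strand, 3 exons) lie 22597 bases apart. Lcn2 lies at chr2:32240153-32243317 on the minus strand with 5 exons, and Mmp8 at chr9:7558429-7568486 on the plus strand with 10 exons. Camp (chr9:109749889-109751970, minus strand, 4 exons), Ngp (chr9:110322254-110325514, plus strand, 4 exons) and Ltf (chr9:110921796-110945270, plus strand, 17 exons) follow each other on chromosome 9, with 570283 bases between Camp and Ngp and 596281 between Ngp and Ltf. Exons are those of the longest transcript in the mm9 annotation.

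The promoters of the calprotectin pair, of Lcn2 and of Mmp8 are shown because these 4 genes carry the contrast between the tables described here. S100a8, Lcn2 and Mmp8 were high in RAW264.7 cells given LPS + MIC-1 and S100a9 was not, whereas all 4 were higher in liver after LPS than in its controls. Each sequence is the 250 bases before the annotated start, 5′ to 3′ on the strand of the gene, from RefSeq on GRCm38.p6, which is not the build of the tables. The regions are chr3:90668821-90669070 (S100a8, plus strand), chr3:90695722-90695971 (S100a9, minus strand), chr2:32387740-32387989 (Lcn2, minus strand) and chr9:7558179-7558428 (Mmp8, plus strand). Capitals mark matches to the motifs named after them.
S100a8: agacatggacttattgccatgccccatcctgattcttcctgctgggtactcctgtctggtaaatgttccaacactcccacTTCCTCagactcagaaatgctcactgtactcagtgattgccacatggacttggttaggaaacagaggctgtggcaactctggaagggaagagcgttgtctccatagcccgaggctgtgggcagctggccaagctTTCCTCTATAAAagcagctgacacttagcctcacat
S100a9: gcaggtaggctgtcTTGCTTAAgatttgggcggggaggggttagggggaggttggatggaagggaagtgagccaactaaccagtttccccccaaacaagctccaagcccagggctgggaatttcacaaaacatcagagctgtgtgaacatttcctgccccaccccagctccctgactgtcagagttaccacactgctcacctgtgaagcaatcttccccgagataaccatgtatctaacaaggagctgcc
Lcn2: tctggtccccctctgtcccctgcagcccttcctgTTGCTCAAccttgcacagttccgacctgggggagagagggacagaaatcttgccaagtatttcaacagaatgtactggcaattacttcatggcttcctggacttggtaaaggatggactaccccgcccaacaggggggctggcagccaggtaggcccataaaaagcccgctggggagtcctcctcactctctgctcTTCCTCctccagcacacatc
Mmp8: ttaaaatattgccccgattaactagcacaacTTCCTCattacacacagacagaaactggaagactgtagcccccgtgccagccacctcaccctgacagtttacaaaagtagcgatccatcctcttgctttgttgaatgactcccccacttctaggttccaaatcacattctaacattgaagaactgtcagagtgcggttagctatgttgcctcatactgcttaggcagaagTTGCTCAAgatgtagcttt

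The letters of 6 motifs were searched on both strands in the promoters of all 7 genes, each of which had an entry. The core of the C/EBP site, TTGCNNAA, matched in 5 of the 7, S100a9, Lcn2, Mmp8, Ngp and Ltf, against 9.56% of 32851 mouse promoters of the same length. The matches in S100a9, Lcn2 and Mmp8 spanned bases 236 to 229, 216 to 209 and 19 to 12 before the start. S100a8 and Camp held none. The ETS core GAGGAA, written as TTCCTC where it lies on the other strand, matched in 4 of the 7, S100a8, Lcn2, Mmp8 and Ltf, against 23.3% of promoters. A TATA box, TATAAA, was found in 1 of the 7, S100a8, at bases 30 to 25 before the start, next to its second ETS match and not overlapping it, against 12.4% of promoters. No match was found in the 7 genes for the antioxidant response element TGACNNNGC, present in 10.2% of promoters, the AP-1 site TGANTCA, in 6.75%, or the NF-κB consensus, in 7.25%. A match is a string of letters in this window and not a measured binding site.

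The deposited values are FPKM, read fragments scaled to transcript length and library size, which allow levels to be compared between genes. Estimated from the steps between low values, the depth was 16.23 to 20.68 M reads in the RAW264.7 libraries. It was 4.28 to 9.67 M in the liver controls and 11.09 to 17.42 M in the other liver libraries, so the lowest members are counted least well in the liver controls. A 0 is only a listing, since Cebpa, a transcription factor that hepatocytes use, was at 0 to 0.0293 FPKM in every liver library. In the RAW264.7 table, LPS library 2 lay with the controls over all tested genes. Its root mean square log2 distance was 0.298 to control library 2, and 1.21 to each of the other LPS libraries, which were 0.402 apart. The study left an LPS library out of its own RAW264.7 analysis and does not name which. RAW264.7 results of the members are therefore given over all 9 libraries and again over the 8 libraries without it. In liver, library 2 of the LPS group and library 2 of the LPS + MIC-1 group each lay apart from libraries 1 and 3 of their group, at 1.04 to 1.05 and 0.825 to 0.848, against 0.451 and 0.467 between libraries 1 and 3. Member values that depend on these libraries are given without them. The liver controls lay as widely apart from each other, at 0.844 to 1.09. Liver LPS library 2 was closer to every LPS + MIC-1 library, at 0.737 to 0.932, than to its own group. LPS + MIC-1 library 2 was closest to LPS library 2, at 0.737, and lay at 0.871 and 0.83 from LPS libraries 1 and 3. Of the markers of the labelled cells, Csf1r was at 108 to 423 FPKM and Lyz2 at 8726 to 10746 FPKM in the RAW264.7 libraries, and Alb at 13740 to 35991 FPKM in the liver libraries.

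Differences were tested with limma on log2(FPKM + 0.5) over genes with a mean FPKM above 1, and a gene was called at an absolute Log2FC above 1 with an adjusted p-value below 0.01 in RAW264.7 cells and below 0.05 in liver. Adding 0.5 makes the Log2FC of a gene at low FPKM smaller than its change in FPKM. The 3 groups of a table shared 1 estimate of the spread, so SE and calls also depend on the group that is not compared. Of the members, 3 of 7 passed the filter in RAW264.7 cells (S100a8, Lcn2 and Mmp8) and 6 of 7 in liver (all but Ltf). Because the members were picked for these contrasts, their Log2FC values are given as a description with the standard error (SE) and no p-value, and nothing is read from how many of them were called. The lists of other genes were also chosen with earlier results of these data known. The p-values of their genes are adjusted over all tested genes but not for that choice. Calls over all genes depended on scale. When FPKM were rescaled to the same sum per library, the median Log2FC of all tested genes moved from −0.03 to −0.65 for LPS against control in RAW264.7 cells, and from −0.01 to 0.44 for LPS + MIC-1 against LPS. The corresponding shifts in liver were from 0.15 to −0.18 and from −0.01 to −0.26, and for LPS + MIC-1 against control from −0.04 to −0.21 in RAW264.7 cells and from 0.15 to −0.43 in liver. Of the members' values, 1 changed sign with any alternative, liver Lcn2 with LPS + MIC-1 against LPS, from 0.22 to −0.07 with this rescaling.

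In RAW264.7 cells, S100a8 was the member with the widest separation between LPS and LPS + MIC-1. Its level was 1.46, 2.40 and 1.54 FPKM in the control libraries, 29.7, 3.56 and 39.2 FPKM in the LPS libraries and 651, 676 and 718 FPKM in the LPS + MIC-1 libraries. All 3 groups were apart from each other, although LPS library 2, at 3.56 FPKM, lay close to the controls. The Log2FC of LPS + MIC-1 against LPS was 5.33 ± 0.74 (SE, n = 3 and 3), and 4.30 ± 0.18 without LPS library 2. LPS against control gave 2.91 ± 0.74, and 3.94 ± 0.18 without that library. In rank, S100a8 moved from 8550 to 9200 of 21441 genes in the controls (1 is the highest) to 142 to 160 with LPS + MIC-1.

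S100a9, the partner of S100A8 in calprotectin, stayed at the floor of the assay in the same libraries. It was listed at 0 in every control library, at 0.194, 0.122 and 0 FPKM with LPS, and at 0.136, 0.136 and 0.482 FPKM with LPS + MIC-1. These values stand for 1, 1 and 0 reads and for 1, 1 and 3 reads, while 3 reads, the limit that a count of 0 allows, were worth 0.338 to 0.372 FPKM in the controls and 0.548 FPKM in LPS library 3. No change of S100a9 was detectable at this depth. Over the 3 LPS + MIC-1 libraries, 5 estimated reads fell on S100a9 and 8732 on S100a8. The ratio of the mean FPKM of S100a8 to that of S100a9 was 2712 (95% interval 1162 to 8353, for counting error only). Intervals and floors here cover counting error and not the spread between libraries.

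Lcn2 reached the highest level of the members in RAW264.7 cells. Its level was 5.56, 23.4 and 7.67 FPKM in the controls, 1661, 24.5 and 1670 FPKM with LPS and 3223, 2742 and 3373 FPKM with LPS + MIC-1. LPS library 2 lay just above the highest control, and the other LPS libraries lay below every LPS + MIC-1 library. For LPS + MIC-1 against LPS the Log2FC was 2.92 ± 1.48 (SE, n = 3 and 3) over all libraries and 0.90 ± 0.50 without LPS library 2, so that 1 library set most of this value. LPS against control gave 5.28 ± 1.48, and 7.30 ± 0.50 without it. With LPS + MIC-1, Lcn2 ranked 14 to 21 of all genes and held 0.420 to 0.521% of the FPKM sum.

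Mmp8, the neutrophil collagenase, moved in the same order from a very low level. Its level was 0.0908, 0.157 and 0.0930 FPKM in the controls, 1.23, 0.198 and 2.13 FPKM with LPS and 35.7, 21.4 and 35.2 FPKM with LPS + MIC-1. The controls rest on 5.0 to 7.9 estimated reads and the LPS + MIC-1 libraries on 966.9 to 1633.3 reads. The groups did not overlap in any of the 3 comparisons. The Log2FC of LPS + MIC-1 against LPS was 4.38 ± 0.45 (SE, n = 3 and 3), and 3.84 ± 0.26 without LPS library 2. For LPS against control it was 1.26 ± 0.45, and 1.797 ± 0.26 without that library.

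The other 3 granule genes were near or at 0 in RAW264.7 cells. Camp, the cathelicidin, was at 0, 0.104 and 0.0995 FPKM in the controls, at 0.495, 0.208 and 0.623 FPKM with LPS and at 0.924, 0.924 and 0.957 FPKM with LPS + MIC-1. Its groups were in the same order as those of Mmp8, but on 0 to 1, 2 to 4 and 7 to 8 reads, below the filter for testing. Ngp was listed at 0 in 8 libraries and rested on 1 read in LPS + MIC-1 library 1, against a floor of 0.122 to 0.211 FPKM in the libraries at 0. Ltf was listed at 0 in all 9.

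**Figure D1:**
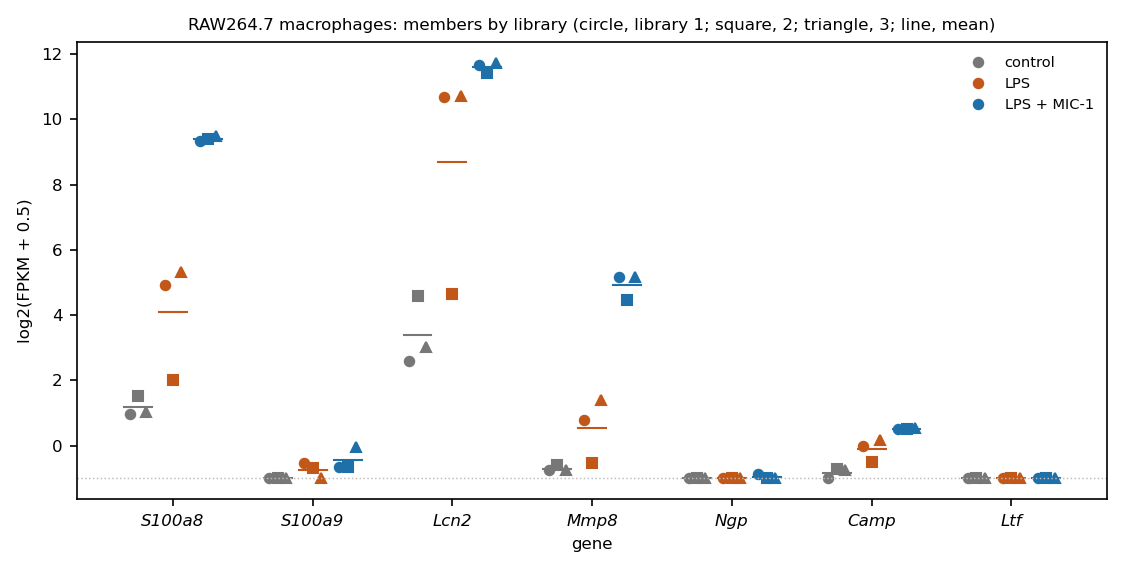
FPKM of the 7 genes in each of the 9 RAW264.7 libraries, plotted as log2(FPKM + 0.5); points are libraries (circle 1, square 2, triangle 3), lines are group means, and colours are the groups control, LPS and LPS + MIC-1. S100a8, Lcn2 and Mmp8 are highest in the LPS + MIC-1 libraries, LPS library 2 lies near the controls, and S100a9, Ngp and Ltf stay at or near 0.

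Over all 9 libraries, 0 of the 3 tested members were called for LPS against control, where limma called 0% of 9905 genes (0 genes, against 1901 at an unadjusted p below 0.05 with the same fold). All 3 were called when LPS library 2 was left out, with 34.2% of genes called and 16.3% called as higher. For LPS + MIC-1 against LPS, S100a8 and Mmp8 were called with all 9 libraries, where 3.87% of genes were called and 2.06% as higher, and also with the 8, where 23.3% were called and 11.3% as higher. S100a8 was called in 4 of the 9 fits that left out 1 library, Mmp8 in all 9 and Lcn2 in none, and the Log2FC of S100a8 ranged from 4.30 to 5.94, that of Mmp8 from 3.84 to 4.79 and that of Lcn2 from 0.90 to 3.93. For LPS + MIC-1 against control all 3 were called, at Log2FC of 8.24 ± 0.74 for S100a8, 8.20 ± 1.48 for Lcn2 and 5.64 ± 0.45 for Mmp8, with 5.59% of genes called and 3.27% as higher. These SE include the spread of the LPS libraries, which are not compared here. Without LPS library 2 the Log2FC were the same and the SE were 0.16, 0.44 and 0.23 in the same order. All 3 were called again, with 15.7% of genes called and 7.55% as higher. Of the 9 fits that left out a library, Lcn2 was called for LPS + MIC-1 against control in 3, those without an LPS library. The fits that lost the call left out a control or an LPS + MIC-1 library.

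Groups did not overlap for 4 of the 6 members above 0 in LPS against control, for 4 in LPS + MIC-1 against LPS and for 5 in LPS + MIC-1 against control, each time with the first-named group higher. The fifth is S100a9, on 1 to 3 reads. Over all 16179 genes above 0 the shares that were higher without overlap were 12.3%, 14.3% and 24.3%.

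**Figure D2:**
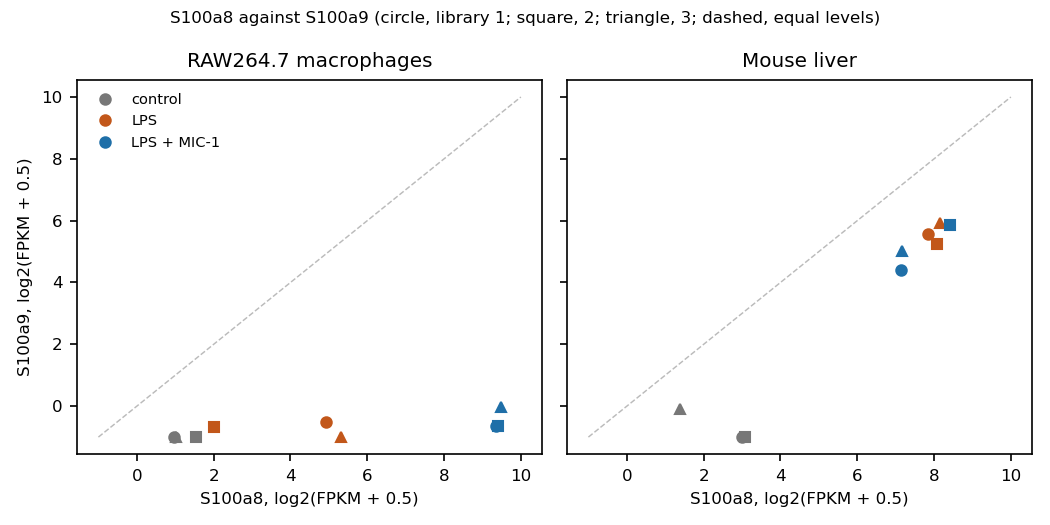
FPKM of S100a8 (x axis) against S100a9 (y axis) in each library, both as log2(FPKM + 0.5), with RAW264.7 cells and liver in separate panels and 1 point a library; the dashed line marks equal levels. The liver libraries of the LPS and LPS + MIC-1 groups are high for both genes, and the RAW264.7 LPS + MIC-1 libraries are high for S100a8 alone.

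In liver, both calprotectin genes were far higher after LPS. S100a8 was at 7.49, 7.98 and 2.13 FPKM in the controls, at 228, 269 and 286 FPKM with LPS and at 141, 339 and 143 FPKM with LPS + MIC-1. S100a9 was at 0, 0 and 0.448 FPKM in the controls, where 3 reads were worth 0.791 and 1.40 FPKM in the libraries at 0, at 47.1, 37.6 and 60.1 FPKM with LPS and at 20.5, 57.4 and 32.2 FPKM with LPS + MIC-1. All controls lay below all libraries given LPS for both genes, and LPS + MIC-1 library 2 was the highest of its group for both. The Log2FC of LPS against control was 5.53 ± 0.50 for S100a8 and 6.27 ± 0.40 for S100a9 (SE, n = 3 and 3). In bulk tissue, fewer cells of a type and less RNA per cell cannot be told apart, and this holds for every liver value here.

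The pair was present together in liver, with S100a8 the higher. S100a8 FPKM was 4.84, 7.17 and 4.76 times that of S100a9 in the LPS libraries and 6.87, 5.90 and 4.43 times in the LPS + MIC-1 libraries. In control library 3, the only control with an S100a9 read, the ratio was 4.76 on that 1 read. The tables were scaled separately, so the ratio within a library is set beside that in RAW264.7 cells without a test.

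Lcn2 was among the most abundant transcripts of the LPS liver. Its level was 405, 2037 and 35.5 FPKM in the controls, which differed widely, 22434, 18268 and 29552 FPKM with LPS and 27410, 23389 and 29666 FPKM with LPS + MIC-1. It ranked 3 to 8 of all genes with LPS and 5 to 6 with LPS + MIC-1, and held 2.13 to 3.33% and 2.34 to 2.79% of the FPKM sum. In the controls it ranked 39 to 1467. The Log2FC of LPS against control was 6.21 ± 1.18 (SE, n = 3 and 3) and ranged from 4.66 to 7.57 when 1 library was left out.

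The granule genes Mmp8, Ngp, Camp and Ltf were low in the control liver and present after LPS. Mmp8 was at 0.214, 0.153 and 0 FPKM in the controls, at 8.87, 4.41 and 5.64 FPKM with LPS and at 2.68, 5.83 and 2.96 FPKM with LPS + MIC-1. Ngp was at 1.18, 0.514 and 0 FPKM in the controls, at 54.5, 6.62 and 49.7 FPKM with LPS and at 9.46, 19.9 and 8.98 FPKM with LPS + MIC-1. In both genes every LPS library exceeded every control, and in Ngp LPS library 2 was well below libraries 1 and 3.

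Camp was at 0.471, 0.392 and 0 FPKM in the controls, at 7.43, 1.76 and 7.85 FPKM with LPS and at 1.57, 7.05 and 0.830 FPKM with LPS + MIC-1. Ltf, below the filter, was at 0.0379, 0 and 0 FPKM in the controls, at 1.40, 0.268 and 1.25 FPKM with LPS and at 0.910, 3.01 and 0.933 FPKM with LPS + MIC-1. LPS library 2 was the lowest of its group and LPS + MIC-1 library 2 the highest of its group for S100a9, Mmp8, Ngp, Camp and Ltf, and these are the libraries that stood apart over all genes. In the controls the 4 genes rest on 0 to 12.1 estimated reads.

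**Figure D3:**
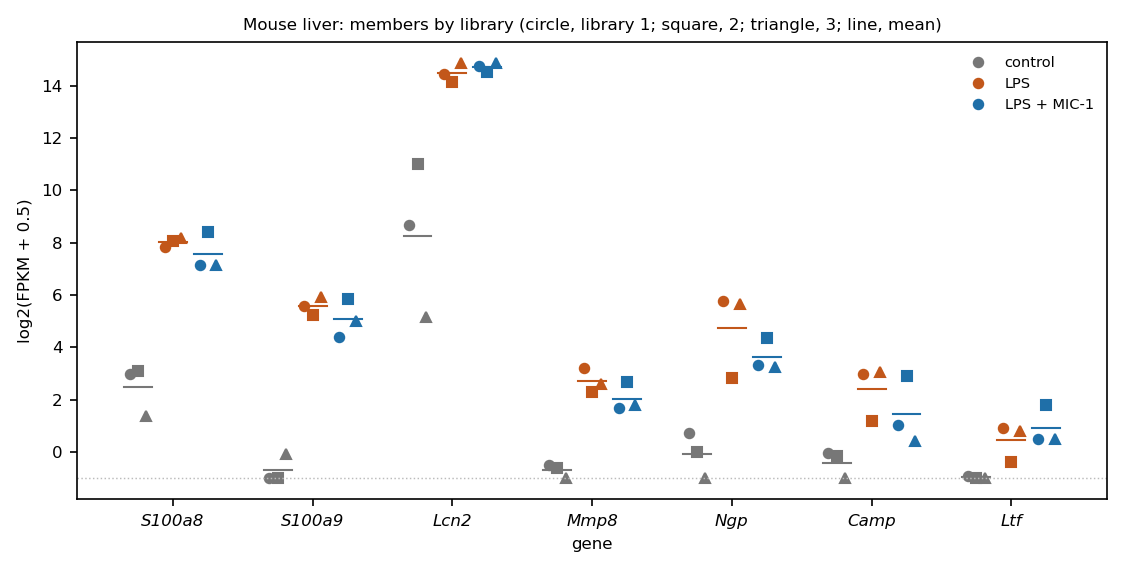
FPKM of the 7 genes in each of the 9 liver libraries, plotted as log2(FPKM + 0.5); points are libraries (circle 1, square 2, triangle 3), lines are group means, and colours are the groups control, LPS and LPS + MIC-1. Every gene is higher in the LPS and LPS + MIC-1 libraries than in the controls, and the LPS and LPS + MIC-1 groups overlap for every gene.

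For LPS against control in liver, the Log2FC was 3.41 ± 0.35 for Mmp8, 4.83 ± 0.79 for Ngp and 2.81 ± 0.72 for Camp (SE, n = 3 and 3). When 1 library was left out, Ngp ranged from 4.32 to 5.79 and Camp from 2.48 to 3.43, both highest without LPS library 2. All 6 tested members were called, with 24.6% of 10147 genes called by limma and 13.4% called as higher. Camp lost its call without control library 3, without LPS library 1 and without LPS library 3. All 7 members were higher in LPS without overlap, as were 17.1% of 17282 genes above 0. With LPS + MIC-1 against control, the Log2FC ranged from 1.86 ± 0.72 for Camp to 6.43 ± 1.18 for Lcn2, 5 of the 6 tested members were called, all but Camp, with 25.2% of genes called and 13.8% as higher. The groups again did not overlap for any of the 7, while 20.2% of the genes above 0 were higher without overlap. Of the fits that left out 1 library, Camp was called there only in that without LPS library 2, and its Log2FC ranged from 1.13 to 2.39. Without library 2 of both LPS-treated groups all 6 were called in both comparisons, with 34.9% of genes called for LPS and 29% for LPS + MIC-1 against control, and the Log2FC against control was 5.79 ± 0.48 and 3.36 ± 0.48 for Ngp and 3.43 ± 0.36 and 1.13 ± 0.36 for Camp.

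LPS + MIC-1 and LPS did not separate in liver for any member. The Log2FC was −0.45 ± 0.50 for S100a8, −0.49 ± 0.40 for S100a9, 0.22 ± 1.18 for Lcn2, −0.67 ± 0.35 for Mmp8, −1.12 ± 0.79 for Ngp and −0.95 ± 0.72 for Camp (SE, n = 3 and 3). The SE of Lcn2 includes the spread of the controls, at 35.5 to 2037 FPKM, which are not compared here. Its LPS and LPS + MIC-1 libraries lay at 18268 to 29552 and 23389 to 29666 FPKM. Without control library 3 its SE was 0.56 at the same Log2FC. All 7 members overlapped between the groups, while 9.75% of tested genes did not, and limma called 0 members and 0% of genes (0 of 10147, against 100 at an unadjusted p below 0.05 with the same fold).

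These values moved with the libraries used. When LPS library 3 was left out, Lcn2 was higher with LPS + MIC-1 without overlap, as were 8.29% of tested genes, at a Log2FC of 0.40 ± 1.40. Without LPS + MIC-1 library 2, S100a8, S100a9, Mmp8 and Camp were lower with LPS + MIC-1 without overlap, at Log2FC of −0.87 ± 0.48, −0.87 ± 0.37, −0.98 ± 0.33 and −1.68 ± 0.62 (SE), as were 15.5% of tested genes, and 0 members and 0% of genes were called. Leaving out LPS library 2 instead, Ngp (−2.08 ± 0.53) and Camp (−1.56 ± 0.69) were lower without overlap, as were 25.2% of tested genes, and 0 members and 0.345% of genes were called. With both left out, an alternative chosen after seeing the data with 2 libraries against 2, the Log2FC was −0.85 ± 0.57 for S100a8, −1.04 ± 0.39 for S100a9, −1.19 ± 0.29 for Mmp8, −2.43 ± 0.52 for Ngp and −2.29 ± 0.40 for Camp. These 5 did not overlap between the groups, as 36.8% of tested genes did not in that direction, and Camp was the 1 called, with 2.99% of genes called. Lcn2 stayed at 0.15 ± 1.71 with overlap. The SE of Lcn2 in these fits again include the wide spread of the controls.

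**Figure D4:**
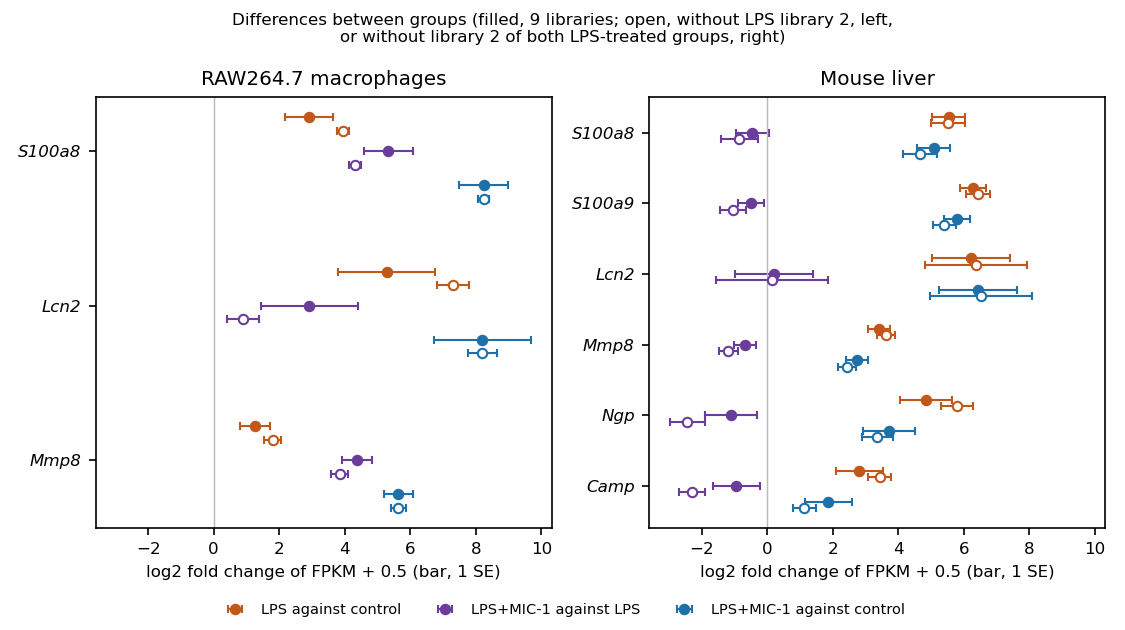
Log2FC of the tested members in the 3 comparisons, RAW264.7 cells and liver in separate panels, with bars of 1 SE; filled points use all libraries and open points leave out LPS library 2 (RAW264.7) or library 2 of both LPS-treated groups (liver). In RAW264.7 cells S100a8 and Mmp8 lie above 3 for LPS + MIC-1 against LPS, whereas in liver the values for that comparison lie between −1.12 and 0.22 with all libraries.

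The neutrophil surface and identity genes were a list apart from the members. In liver, 10 of its 12 tested genes rose after LPS, 1 fell and the median Log2FC was 1.93, against 0.15 over all genes. For this and every list below, 13.4% of all tested liver genes were called as higher after LPS and 11.2% as lower. Over all RAW264.7 libraries the shares were 2.06% and 1.81% for LPS + MIC-1 against LPS. For LPS + MIC-1 against control they were 3.27% and 2.32%. Retnlg, a resistin-like gene of neutrophils, was at 1.15, 0.765 and 0 FPKM in the controls, at 26.6, 21.0 and 34.2 FPKM with LPS and at 11.1, 23.7 and 12.3 FPKM with LPS + MIC-1. It rose with LPS by a Log2FC of 4.75 ± 0.46 (limma adjusted p = 0.000616). Fpr2, a formyl peptide receptor, rose by 3.62 ± 0.28 (limma adjusted p = 0.00029), and Fpr1, Asprv1, Trem3, Il1r2, Itgam, Itgb2 and Clec4d were among the others that rose, Il1r2 in 3 of the 9 fits that left out a library. Cxcr2, the receptor for neutrophil-attracting chemokines, fell by 2.30 on the Log2FC scale (SE 0.38, limma adjusted p = 0.0049), and Hdc, which makes histamine, was not called. Summed over the list, the level was 37.5 to 58.6 FPKM in the controls, 82.2 to 118 FPKM with LPS and 52.3 to 79.6 FPKM with LPS + MIC-1.

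Of the other granule genes, 7 of 9 tested in liver rose after LPS and 0 fell, or 6 and 1 with FPKM rescaled to the same sum. Chi3l3 (4.19 ± 0.51, limma adjusted p = 0.00159) and Chi3l1 (3.33 ± 0.47, limma adjusted p = 0.00288) encode chitinase-like proteins, and Hp (3.90 ± 0.86, limma adjusted p = 0.012) encodes haptoglobin, which the liver itself makes as an acute phase protein. Of the azurophil genes, Elane was at 1.03 to 2.83 FPKM and Mpo at 0.215 to 0.447 FPKM in the LPS libraries, and Prtn3 at 3.67, 24.9 and 4.87 FPKM. Markers of cell types moved too. The neutrophil markers all come from the granule list or the surface and identity list and are not a further set of genes. Of the neutrophil markers 3 of 4 tested rose with LPS (Elane, Retnlg and Trem3) and Cxcr2 fell. With FPKM rescaled to the same sum, 2 were called as higher and 1 as lower. Their summed level was 28.3 to 44.3 FPKM in the controls, 36.1 to 42.5 with LPS and 18.2 to 35.0 with LPS + MIC-1. Cxcr2 alone held 26.5 to 42.6 FPKM of this sum in the controls, 3.89 to 10.1 with LPS and 3.59 to 7.79 with LPS + MIC-1. The sum therefore hides the rise of the other markers with LPS. Csf3r and Mpo were at 0 in all controls. The summed monocyte markers were at 1.61 to 3.01 FPKM in the controls, 6.14 to 23.1 with LPS and 9.38 to 17.4 with LPS + MIC-1. The summed hepatocyte markers were at 40572 to 79452, 35081 to 45454 and 34790 to 44758 FPKM. The summed macrophage markers were at 41.1 to 57.1, 138 to 631 and 135 to 444 FPKM, of which Cd14 alone held 3.49 to 10.8, 84.2 to 569 and 56.7 to 407 FPKM. With LPS against control, 2 macrophage markers were called as higher and 2 as lower. Of the Kupffer cell markers, 1 was called as higher there and 2 as lower. T cell markers summed to 10.7 to 15.6, 2.35 to 5.75 and 2.60 to 3.74 FPKM, and B cell markers to 3.13 to 3.88, 0.260 to 1.25 and 0.328 to 0.964 FPKM. The part of these in the members' levels was not tested.

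**Figure D5:**
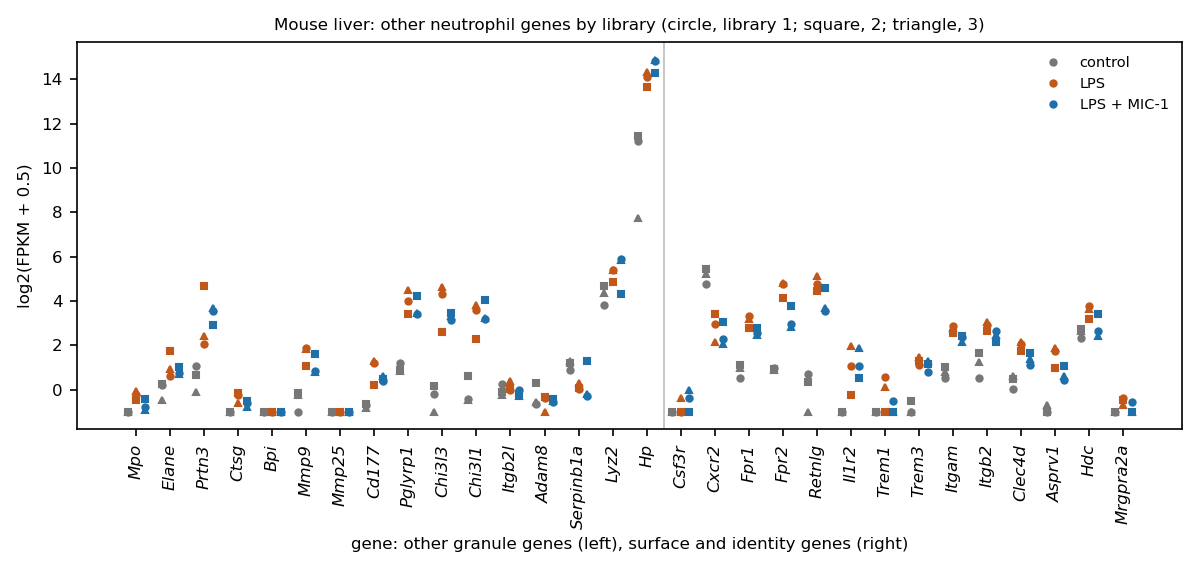
Liver log2(FPKM + 0.5) of the other neutrophil granule genes (left) and of neutrophil surface and identity genes (right) in the control, LPS and LPS + MIC-1 libraries, 1 point a library. Retnlg and Fpr2 are higher in the LPS and LPS + MIC-1 libraries than in the controls, and Cxcr2 is lower.

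In RAW264.7 cells the other genes of neutrophil granules covered a wide range. Lyz2, the lysozyme gene that macrophages also express, made up most of the list's summed level of 8955 to 11161 FPKM, Adam8 was at 85.4 to 204 FPKM and Mmp9 at 5.91 to 215 FPKM. Ctsg, Bpi and Itgb2l were listed at 0 in all 9 libraries, Mpo was at 0.0281 FPKM or less and Elane at 0.132 FPKM or less, and of 4 tested genes of the list 0 were called in any of the 3 comparisons. Mmp9 and Adam8 were called for LPS against control when LPS library 2 was left out. Of the surface and identity genes, 3 of 9 tested rose with LPS + MIC-1 against LPS, at Log2FC of 2.65 ± 0.30 for Fpr1 (limma adjusted p = 0.00163), 2.59 ± 0.25 for Trem1 (limma adjusted p = 0.000918) and 1.43 ± 0.21 for Trem3 (limma adjusted p = 0.00403). Trem1 and Trem3 encode receptors that amplify myeloid activation. These 3 were called again without LPS library 2, where Itgb2 and Hdc were also called, as lower. With FPKM rescaled to the same sum over all libraries, Fpr1, Trem1 and Itgam were the 3 called. Of Fpr1, Trem1 and Trem3, Trem1 alone was called in every fit that left out a library. The summed neutrophil markers were at 12.98 to 21.9 FPKM in the controls, 15.4 to 20.4 with LPS and 41.9 to 48.1 with LPS + MIC-1, of which Trem3 made up 39.4 to 46.7 FPKM in the last group. Retnlg was at 0 in all LPS and LPS + MIC-1 libraries.

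Transcription factors of myeloid and acute phase genes, the C/EBP family among them, made up a further list. In RAW264.7 cells 2 of 8 tested rose with LPS + MIC-1 against LPS. Cebpd, an acute phase C/EBP factor, was at 16.2, 22.4 and 16.5 FPKM in the controls, at 13.7, 23.6 and 12.0 FPKM with LPS and at 45.0, 43.6 and 44.7 FPKM with LPS + MIC-1, a Log2FC of 1.47 ± 0.24 (limma adjusted p = 0.00646). Nfkbiz, the IκBζ cofactor needed for Lcn2 induction, rose by 1.44 ± 0.25 (limma adjusted p = 0.00742). Cebpd was called in 1 and Nfkbiz in 2 of the 9 fits that left out a library, and with FPKM rescaled to the same sum Nfkbiz was the 1 called. Cebpe, the granule gene factor, was called as well without LPS library 2, at 1.92 ± 0.16 (limma adjusted p = 3.66e-05). Its level was 8.76 to 12.5 FPKM in the controls, 3.42 and 4.16 in LPS libraries 1 and 3 and 14.8 to 17.1 with LPS + MIC-1. In liver 5 of 7 tested rose after LPS, among them Cebpd (3.03 ± 0.30, limma adjusted p = 0.000631), Stat3 (1.74 ± 0.30, limma adjusted p = 0.00566) and Sfpi1, which encodes PU.1 (1.55 ± 0.21, limma adjusted p = 0.00242), and Cebpe fell by 1.46 (SE 0.31, limma adjusted p = 0.0112). With FPKM rescaled to the same sum, Cebpd, Stat3 and Sfpi1 were the 3 called as higher.

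Of the cytokines and receptors upstream of the members, 3 of 8 tested rose in RAW264.7 cells with LPS + MIC-1 against control over all 9 libraries. These were Csf3, the granulocyte growth factor (10.41 ± 1.75, limma adjusted p = 0.00557), Il6 (6.15 ± 0.81, limma adjusted p = 0.00217) and Tnf (1.75 ± 0.28, limma adjusted p = 0.00495), called in 3, 5 and 4 of the 9 fits that left out a library. The LPS libraries are not compared here but enter the spread of these fits, also for the chemokines below. Over the 8 libraries Il6, Csf3, Tnf and Il17ra were also called as higher in LPS + MIC-1 than in LPS, at 2.59 ± 0.53 for Il6 (limma adjusted p = 0.00326) and 2.33 ± 0.31 for Csf3 (limma adjusted p = 0.000355). Il6 was also called there over all 9 libraries with FPKM rescaled to the same sum. Il17ra lay below its controls in that group. Its level was 23.4 to 25.1 FPKM in the controls, 7.51 and 7.10 in LPS libraries 1 and 3 and 16.1 to 17.4 with LPS + MIC-1. Both tested neutrophil-attracting chemokines rose with LPS + MIC-1 against control, Cxcl3 by 9.07 ± 1.195 (limma adjusted p = 0.00224) and Cxcl2 by 5.35 ± 0.75 (limma adjusted p = 0.00289), each called in 4 of the 9 fits that left out a library. Both were also called as higher with LPS + MIC-1 than LPS without LPS library 2, and over all libraries once FPKM had equal sums. In liver 4 of 7 cytokine and receptor genes rose after LPS, led by Il1b (2.52 ± 0.32, limma adjusted p = 0.00193) and Il1r1 (2.32 ± 0.32, limma adjusted p = 0.00262), and 1 of 3 chemokines, Cxcl1 (4.04 ± 0.26, limma adjusted p = 0.000204).

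Among the receptors and partners of the 7 proteins, 2 of 7 tested rose in liver after LPS, and in both LPS + MIC-1 library 2 was the highest of its group. Cd14, a co-receptor of TLR4, was at 10.8, 7.70 and 3.49 FPKM in the controls, at 569, 84.2 and 552 FPKM with LPS and at 56.7, 407 and 61.4 FPKM with LPS + MIC-1 (LPS against control 5.38 ± 0.95, limma adjusted p = 0.00578). Timp1, the inhibitor of metalloproteinases such as Mmp8, rose by 5.27 ± 0.54 (limma adjusted p = 0.000729). In RAW264.7 cells 0 of 11 were called over all libraries. Over the 8 libraries, 7 were higher and 1 lower with LPS than control, beside 16.3% and 17.9% of all tested genes. With LPS + MIC-1 against LPS, 1 was higher and 4 lower, beside 11.3% and 12% of genes. Tlr4, the receptor of calprotectin, rose there by 2.90 ± 0.11 (limma adjusted p = 1.98e-06) and Timp1 fell by 2.53 (SE 0.22, limma adjusted p = 4.2e-05). Both had moved the other way with LPS. In that fit the LPS group is libraries 1 and 3 alone, which lay close to each other, and the p-values are not adjusted for the choice of genes. Tlr4 was at 9.34 to 10.3 FPKM in the controls, 1.11 and 1.48 in LPS libraries 1 and 3 and 12.2 to 13.4 with LPS + MIC-1. Timp1 was at 0.244 to 0.338, 6.61 and 5.86, and 0.475 to 1.05 FPKM in the same order.

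Relatives of S100a8, S100a9 and Lcn2 were set beside them. Of the other S100 genes, 3 of 9 tested rose in liver after LPS, S100a11 (2.71 ± 0.30, limma adjusted p = 0.000997), S100a4 (2.17 ± 0.27, limma adjusted p = 0.00182) and S100a6 (1.71 ± 0.30, limma adjusted p = 0.00579), and S100b fell, in 5 of the 9 fits that left out a library. In RAW264.7 cells 0 of 6 were called over all libraries in any comparison, and without LPS library 2 S100a1, S100a6 and S100a13 were higher with LPS than control and S100a1 and S100a13 lower with LPS + MIC-1 than LPS. Of the other lipocalin-fold plasma protein genes, 5 of 8 rose in liver after LPS, led by the orosomucoids Orm2 (5.18 ± 0.90, limma adjusted p = 0.00558) and Orm1 (3.43 ± 0.38, limma adjusted p = 0.00103), and Ptgds fell by 3.14 (SE 0.28, limma adjusted p = 0.000456). From 3 to 6 were called as higher when 1 library was left out. For LPS + MIC-1 against LPS in liver, 0 genes were called in any of these 8 lists, also in every fit that left out 1 library. Without library 2 of both LPS-treated groups, Fpr2, Hdc, Csf3, Cd14 and Timp1 were called as lower with LPS + MIC-1 and 0 list genes as higher.

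The genes whose pattern was most like that of a member were found by Pearson correlation of log2(FPKM + 0.5) over the 9 libraries of a table, as a description. In RAW264.7 cells these were Stfa3 (r = 0.998), Dst (0.997) and 5330426P16Rik (0.996) for S100a8, Cd53 (0.999), Il1rn (0.999) and Upp1 (0.998) for Lcn2, and Ntng2 (0.999), Cdc42bpb (0.998) and Ralgapa2 (0.996) for Mmp8. In liver they were Plac8 (0.999), Cxcl9 (0.995) and Ubd (0.993) for S100a8, Mt2 (0.996), Saa1 (0.995) and Saa2 (0.995) for Lcn2, and Zbp1 (0.990), C5ar1 (0.988) and Ltb4r1 (0.987) for Mmp8. The points share the libraries of 1 table and fall into groups by treatment, so these values largely describe which groups were high. By Spearman correlation 0 of these genes were among those at or above the third rank for any of the 3 members in either table, although their rho was at least 0.867.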

How the data were processed

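Libraries of RAW264.7 cells and of mouse liver, 9 each, were used, 3 a group. Per the study's methods the authors pseudoaligned the reads with kallisto 0.45.0 to a RefSeq index of mm9, summed transcripts to genes with tximport, and deposited FPKM values that they took from DESeq2 1.20.0, which scales libraries to each other by size factors. From the authors' comparison tables only the mean normalized count per gene over the libraries was used, with the low FPKM steps, to estimate reads. Their deposited log2 fold changes and p-values were not used. Every column of per-sample values was matched to a group by its name, and 0 were left unmatched. 90 to 98% of low values came out within 0.1 of a whole read.

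The 2 tables were never combined in a fit. Per table, limma 3.58.1 was run on log2(FPKM + 0.5) for genes whose mean FPKM exceeded 1 (lmFit, eBayes with trend, all 3 groups in 1 fit) and Benjamini-Hochberg adjustment over all genes tested, in R 4.3.3. The pipeline was tested on simulated data. The rest used Python 3.11.15, numpy 2.4.6, pandas 2.3.3, scipy 1.17.1 and matplotlib 3.10.9. No pair of libraries differed by less than sampling noise, taken as the median squared difference over the sampling variance. Libraries 1 and 3 came near it, at 1.8 to 2.57 in the RAW264.7 groups. In liver they were at 8.32 (LPS) and 2.64 (LPS + MIC-1), against 105 to 115 and 47.5 to 47.8 from library 2. Fits without library 2 rest on these close pairs in the groups concerned, so their SE and p-values there measure that small spread. The members and gene lists were chosen with earlier results of these data known. Named were all members, up to 3 called genes a list with the largest Log2FC, the detected surface and identity genes (1 is not reported here), and the 3 genes most like S100a8, Lcn2 and Mmp8; other list genes named were chosen after their values were seen. Alternatives were other pseudocounts (0.1 and 1), no filter or a mean FPKM above 5, other scalings, only the compared groups in the fit, eBayes without trend, other call rules and each library left out in turn. Measured read counts of single libraries were not analysed here, and the reads given per library are estimates.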

Additional observations from a re-analysis of the deposited data

How the results depend on the processing

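Most results kept their direction under the alternatives. Of 318 alternative values for members in liver 1 had the opposite sign and 12 moved by more than the spread between replicates, and of 153 in RAW264.7 cells 0 and 3 did. These totals include values that could not move. Other filters, no trend, only the compared groups in the fit, or a library left out of the group not compared, leave a Log2FC unchanged. Counts of genes called were less stable. In RAW264.7 cells LPS against control gave 0 genes, 1901 with unadjusted p-values and 0 to 3386 when 1 library was left out. The 383 genes of LPS + MIC-1 against LPS became 5 with only the compared groups in the fit, 617 on adjusted p alone, 1131 with unadjusted p-values and 109 to 2310 when 1 library was left out. The 554 of LPS + MIC-1 against control became 1541, 866, 1480 and 141 to 1560 in the same order. The highest counts came without LPS library 2. In liver LPS against control gave 2493 genes and 1227 to 3510 with 1 library left out, and LPS + MIC-1 against control 2560 and 1749 to 3111. LPS + MIC-1 against LPS gave 0, 1 with a pseudocount of 1, 2 with no filter, 1 without trend, 100 with unadjusted p-values, 0 to 35 with 1 library left out and 303 without library 2 of both LPS-treated groups, the last an alternative chosen after seeing the data. The cause of these changes was not tested. With FPKM rescaled to the same sum, the share called as higher went from 53.3 to 85.9% (LPS + MIC-1 against LPS) and from 58.5 to 78.2% (against control) in RAW264.7 cells, and from 54.4 to 30.1% (LPS against control) and from 54.5 to 17.2% (LPS + MIC-1 against control) in liver. No paired analysis was possible because the columns carry no replicate number. Members at a few reads (S100a9, Ngp, Camp and Ltf in RAW264.7 cells, and the granule genes in the liver controls) are limited by depth.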
